A study of Arabidopsis thaliana with 248 samples.

Results

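Long transposable element (TE) genes of the Arabidopsis pericentromeres were followed here through wild-type, mutant and F1 hybrid seedlings. A TE gene is an annotated gene model that belongs to a transposon, and the pericentromere is the repeat-rich, mostly silent chromatin around a centromere. The 614 members were chosen by annotated class, length and position, as TE genes whose end minus start was at least 4000 bases and whose start lay in a fixed window of each chromosome, apart from 3 genes left out by name. The windows ran from 11.5 to 17.7 Mb on chromosome 1, 1.1 to 7.2 Mb on chromosome 2, 10.3 to 17.3 Mb on chromosome 3, 2.4 to 6.3 Mb on chromosome 4 and 9.0 to 16.0 Mb on chromosome 5. They held 3226 of the 3903 TE genes among the 33602 genes of the tables. Of those 3226, 2609 were shorter than 4000 bases. Chromosomes 1 to 5 carried 106, 144, 156, 83 and 125 members. The shortest members inside the length limit were AT3G28315 at 4002 bases and AT4G06650 at 4004 bases, and the nearest TE genes outside it were AT2G10210 at 3996 and AT5G33204 at 3995 bases.

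The study crossed 2 mutants that lose the same silencing marks, and asked how silencing is re-established in their hybrids. RNA was sequenced from 2-week-old whole seedlings, with 3 libraries per genotype described as independent biological replicates. The experiment RNA2 held 9 genotypes. These were wild type (WT, strain Col-0), suvh456 (mutant for the H3K9 methyltransferase genes SUVH4, SUVH5 and SUVH6), cmt23 (mutant for the non-CG DNA methyltransferase genes CMT2 and CMT3), and their F1 hybrids sxc (suvh456 x cmt23) and cxs (cmt23 x suvh456), each of these 4 mutant or hybrid genotypes with functional LDL2 and again homozygous for ldl2 (allele ldl2-1). The experiment RNA3 held 3 genotypes, which were WT, cxs (ASHH3 cmt23 x ASHH3 suvh456) and cxs ashh3 (ashh3 cmt23 x ashh3 suvh456, allele ashh3/sdg7-2). In every F1 the SUVH and CMT genes were heterozygous, so that functional copies of all of them were present again, whereas in the ldl2 and ashh3 hybrids both parents carried that mutation.

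In plants, transposons are kept silent by histone H3 lysine-9 dimethylation (H3K9me2) and cytosine methylation outside CG sites. SUVH proteins bind methylated DNA and write H3K9me2, CMT proteins bind H3K9me2 and methylate DNA, and each mark thereby maintains the other. LDL2 is an LSD1-family demethylase that removes H3K4 monomethylation (H3K4me1), a mark of transcribed chromatin, and ASHH3 is a methyltransferase for H3K36, another mark of transcribed chromatin. Long pericentromeric elements in Arabidopsis are largely retrotransposons, which move through an RNA copy, and many of these are flanked by long terminal repeats that are identical when an element inserts.

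The members were 4002 to 15195 bases long, with a median of 4910.5 bases, and AT5G28263 was the longest. The reference annotation (TAIR10.1, RefSeq) gave 613 of them the same span as the tables, gave 571 as 1 exon block and carried no symbol or element class for the members named here, so sequence was used to describe them. A pair of direct repeats of at least 200 bases and 80% identity, on either side of the gene's midpoint, was found for 165 of the 614 members (26.9%). The search reached 2500 bases beyond each end of the gene and also took repeats that lay inside its ends. The shortest span between the outer ends of a pair was 3431 bases, less than the shortest member, so not every pair lay outside its gene. All these pairs are called flanking repeats here. The repeats had a median length of 650 bases and a median identity of 95.95%, and 8 pairs were identical. The letters TGGTATCAGAG are complementary to the mature 3′ end of 8 of the 11 initiator methionine tRNA genes of the annotation, and are the form a primer-binding site takes in many retrotransposons. They stood in the 60 bases around the inner end of the first repeat in 63 of those 165 members (38.2%). On both strands of the whole genome, 413 of 1985769 windows of 60 bases (0.0208%) held these letters. Among the 167 TE genes of the same length outside the windows, 58 had such repeats (34.7%) and 39 of the 58 held the letters (67.2%). The junctions of the 8 members named below that had repeats are shown because they place these genes among elements with the parts of a retrotransposon. Each run starts 20 bases before the inner end of the first repeat, on the annotated strand, and capitals mark the letters searched for.
AT1G35647 (chr1:13186435-13186494, minus strand): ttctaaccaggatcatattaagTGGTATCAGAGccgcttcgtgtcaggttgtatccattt
AT1G36185 (chr1:13560055-13560114, plus strand): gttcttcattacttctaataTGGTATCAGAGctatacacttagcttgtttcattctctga
AT1G36975 (chr1:14019544-14019603, plus strand): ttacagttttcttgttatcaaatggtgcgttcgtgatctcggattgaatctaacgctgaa
AT1G45020 (chr1:17028718-17028777, minus strand): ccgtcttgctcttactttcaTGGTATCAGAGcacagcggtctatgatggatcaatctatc
AT2G06950 (chr2:2863424-2863483, minus strand): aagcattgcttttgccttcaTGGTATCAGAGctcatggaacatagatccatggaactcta
AT2G15700 (chr2:6837715-6837774, plus strand): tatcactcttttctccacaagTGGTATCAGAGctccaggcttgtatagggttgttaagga
AT3G46183 (chr3:16962198-16962257, minus strand): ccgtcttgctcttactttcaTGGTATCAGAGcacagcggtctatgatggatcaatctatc
AT5G27925 (chr5:9949655-9949714, plus strand): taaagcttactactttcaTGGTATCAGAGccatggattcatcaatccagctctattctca
The junction of AT1G36975 held no match, which says only that these letters were not in that window. The junctions of AT1G45020 and AT3G46183, on different chromosomes, were the same in all 60 bases. The flanking repeats of AT2G06950 (732 bases) were identical, and those of the other 7 shown were between 93.08% and 99.21% identical.

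Members were also grouped by alignment to each other. Members were joined where an alignment covered at least 50% of both, which placed 521 of the 614 in 60 groups and left 93 alone. The largest groups held 96, 38, 37 and 20 members. The 3 groups that recur below were picked for description after their values had been seen, so nothing is tested on them. Group A had 13 members with a median identity of 68.1% and no flanking repeats, group B had 13 members with 67.2% identity and 2 with repeats, and group C had 11 members with 68.5% identity, 9 with repeats and 8 with the primer-binding letters. In RNA2 all 13 members of group A were counted on the strand opposite to the annotated one, and in RNA3 11 of the 13 were. None of group B was in either table. In group C, 5 of the 11 were in RNA2 and 4 of the 11 in RNA3. Among these, AT1G45020, AT3G46183 and AT5G27925 were counted so in both tables, as was AT2G15700 outside the 3 groups. The levels given below for these genes are therefore of RNA opposite to the strand on which their junctions are written. The most conserved ungapped 60 bases among the named members of groups A and B are shown because they let the groups be recognised, with capitals where every member shown has the same base (32 of 60 columns in group A, 34 of 60 in group B). The 8 sequences of group A are written along the strand counted in RNA2.
AT2G11240 (chr2:4479757-4479816, plus strand): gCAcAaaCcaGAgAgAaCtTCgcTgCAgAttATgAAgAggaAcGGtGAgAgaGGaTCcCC
AT2G15380 (chr2:6704543-6704602, minus strand): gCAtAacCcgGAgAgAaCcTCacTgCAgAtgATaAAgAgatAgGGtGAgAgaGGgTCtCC
AT3G28915 (chr3:10919671-10919730, plus strand): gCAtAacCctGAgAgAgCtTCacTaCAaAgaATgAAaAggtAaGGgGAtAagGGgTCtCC
AT3G32360 (chr3:13283926-13283985, plus strand): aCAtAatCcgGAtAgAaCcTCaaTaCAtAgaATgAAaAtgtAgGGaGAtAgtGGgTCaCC
AT3G42545 (chr3:14660611-14660670, minus strand): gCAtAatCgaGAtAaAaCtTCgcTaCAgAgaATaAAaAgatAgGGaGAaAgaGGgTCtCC
AT3G43575 (chr3:15495632-15495691, plus strand): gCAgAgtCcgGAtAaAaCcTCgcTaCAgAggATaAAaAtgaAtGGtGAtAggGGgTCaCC
AT5G28053 (chr5:10054183-10054242, minus strand): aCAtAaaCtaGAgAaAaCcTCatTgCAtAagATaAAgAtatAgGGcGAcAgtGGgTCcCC
AT5G28545 (chr5:10549845-10549904, plus strand): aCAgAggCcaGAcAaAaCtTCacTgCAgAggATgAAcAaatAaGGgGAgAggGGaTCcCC
The 7 sequences of group B, also along that strand, were as follows.
AT1G36185 (chr1:13562340-13562399, plus strand): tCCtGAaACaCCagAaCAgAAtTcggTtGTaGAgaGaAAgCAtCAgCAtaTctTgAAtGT
AT1G47650 (chr1:17522717-17522776, plus strand): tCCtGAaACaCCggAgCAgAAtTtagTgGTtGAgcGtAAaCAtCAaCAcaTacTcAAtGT
AT2G16000 (chr2:6956398-6956457, plus strand): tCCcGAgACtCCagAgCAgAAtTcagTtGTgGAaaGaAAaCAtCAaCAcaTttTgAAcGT
AT3G43723 (chr3:15624390-15624449, plus strand): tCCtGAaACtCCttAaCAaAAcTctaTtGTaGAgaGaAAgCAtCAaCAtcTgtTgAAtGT
AT3G43955 (chr3:15771233-15771292, minus strand): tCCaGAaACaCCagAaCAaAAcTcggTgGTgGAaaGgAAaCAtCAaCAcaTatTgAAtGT
AT3G44215 (chr3:15921457-15921516, minus strand): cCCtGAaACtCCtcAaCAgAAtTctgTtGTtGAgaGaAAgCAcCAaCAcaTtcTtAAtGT
AT5G34965 (chr5:13256032-13256091, minus strand): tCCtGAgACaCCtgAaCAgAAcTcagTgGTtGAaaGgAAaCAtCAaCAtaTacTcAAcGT

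The 27 libraries of RNA2 held between 8448989 and 12942034 counts and the 9 of RNA3 between 8252720 and 10656469, so that 3 counts, the most that a count of 0 allows, correspond to 0.229 to 0.370 CPM (counts per 1e6 counts, after scaling) in RNA2 and 0.289 to 0.367 CPM in RNA3. These limits cover counting error only. The library cxs ldl2 replicate 2 stood apart, with 30088 genes and 350 members detected against 185 and 241 members in the other cxs ldl2 libraries, and the sums, medians and calls for cxs ldl2 are given with and without it. SUVH4 fell in suvh456 (log2 change -1.90) and CMT3 in cmt23 (log2 change -1.87), whereas LDL2 in the 4 ldl2 genotypes (log2 change -0.43 to -0.21, none past the test) and ASHH3 in cxs ashh3 (17.4 against 12.5 CPM, log2 change -0.48, adjusted p = 0.17) kept counted RNA, so gene counts did not check those labels. In RNA2, 63 members had no count in any library, 359 had at least 10 counts in total and 112 had a mean of at least 1 CPM. In RNA3 these numbers were 204, 158 and 60. The single most abundant member made up 13.2% of the mean CPM of all members in RNA2 and the top 10 made up 50.4%, so sums over the members were carried by a few genes.

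The summed level of the 614 members was lowest in WT, highest in suvh456 with or without LDL2, and intermediate in cmt23 and both F1 hybrids. In RNA2 WT the sums were 503.2, 547.9 and 691.7 CPM in the 3 libraries, or 581 ± 98.5 CPM (SD, n = 3). In suvh456 the sums were 2792, 2612 and 2737 CPM (2714 ± 92.3), and in cmt23 they were 1460, 1571 and 1410 CPM (1480 ± 82.0). The 3 genotypes did not overlap. The F1 sums were 1411 ± 126 CPM in sxc and 1511 ± 120 CPM in cxs, which overlapped the range of cmt23. With ldl2, the sums were 2705 ± 152 CPM in suvh456 ldl2, 1918 ± 42.1 CPM in cmt23 ldl2, 1749 ± 134 CPM in sxc ldl2 and 1579 ± 193 CPM in cxs ldl2, where the mean was 1643 CPM over the other 2 libraries without replicate 2. Every library of cmt23 ldl2 lay above every library of cmt23, and every library of sxc ldl2 above every library of sxc, whereas suvh456 ldl2 overlapped suvh456 and cxs ldl2 overlapped cxs with or without its replicate 2. In RNA3 the sums were 486.6 ± 3.72 CPM in WT, 1536 ± 57.2 CPM in cxs and 1231 ± 30.0 CPM in cxs ashh3, with no overlap. Of the 614 members, 111 to 185 had a count in the WT libraries of RNA2, 298 to 335 in suvh456, 217 to 245 in cmt23, 160 to 204 in sxc and 169 to 212 in cxs. The number did not follow the sum throughout, since it was 189 to 209 in sxc ldl2, whose sum was above that of cmt23. In these whole-seedling libraries, a change in the number of cells of a type and a change in RNA per cell cannot be told apart.

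**Figure D1:**
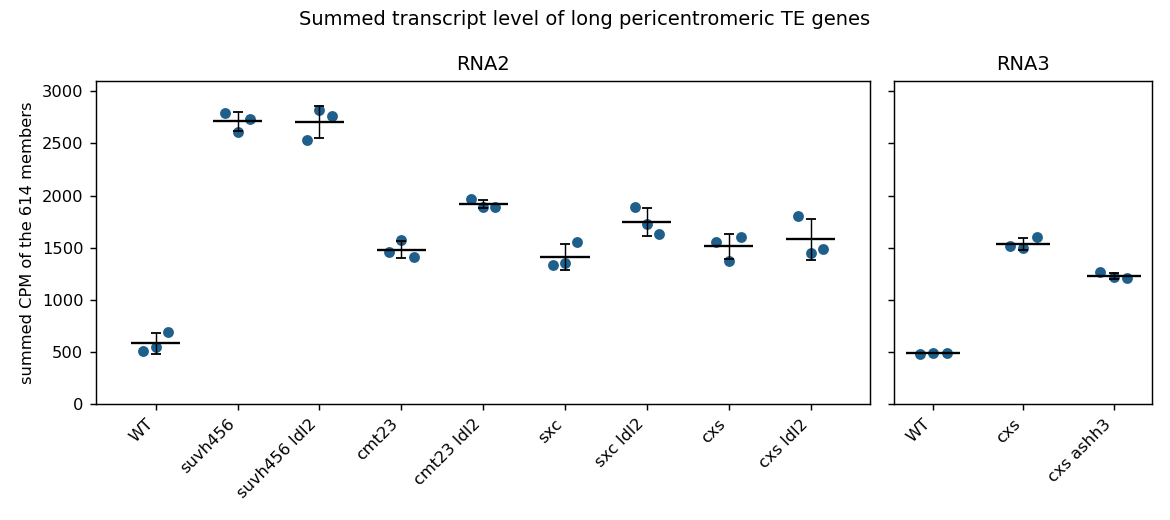
Summed CPM of the 614 long pericentromeric TE genes (vertical axis, linear) in every library of RNA2 and RNA3 (points) by genotype (horizontal axis), with the mean and SD of 3 libraries. The suvh456 libraries sit between 2612 and 2792 CPM, all above the cmt23 libraries at 1410 to 1571 CPM and the WT libraries at 503.2 to 691.7 CPM.

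A few members were already abundant in WT. By TPM (counts per length, scaled to the same total in every library), the highest in WT was AT2G11240 of group A at 57.8 ± 1.08 TPM. Its level was 228.9, 230.4 and 217.3 CPM in WT, 213.3, 222.9 and 232.9 CPM in suvh456 and 247.5, 271.8 and 221.1 CPM in cmt23, and it stayed between 162.0 and 271.8 CPM in all 27 libraries. The groups overlapped, and the gene passed no test against WT in suvh456 (log2 change -0.02, SE 0.12) or cmt23 (0.13, SE 0.12). AT2G06950 of group C came second in WT at 40.8, 42.6 and 42.0 CPM. AT3G43955 of group B had 29.7 CPM on average in WT and 36.4 CPM in suvh456 (log2 change 0.30, adjusted p = 0.22). Each group thus had a member with WT RNA beside others that had none or nearly none. AT3G33201 (31.8 ± 15.9 CPM in WT) and AT3G37820 had counts equal within 6 in every RNA2 library, 8294 and 8313 in total, although they are annotated on opposite strands and one of them was counted against its annotation. Their separate levels are uncertain, and the same holds for AT2G05450, AT2G05550 and AT2G05560, whose counts differed by at most 3 in a library. These 4 pairs were the only ones kept by a search of RNA2 among the 173 members with at least 100 counts. The search kept only pairs with high total counts and did not cover RNA3, so it does not show that no other pairs exist.

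Comparing suvh456 with WT asked which members lose silencing without H3K9 methyltransferases. Of the 614 members, 107 rose (17.4%) and 1 fell, where edgeR's quasi-likelihood test with Benjamini-Hochberg adjustment over all 33602 genes called 2.09% of genes higher and 0.527% lower. The median log2 change was 0.61 for the members and 0.00 over all genes. Side by side, 187 of the 2609 shorter TE genes in the windows rose (7.17%), as did 75 of the 167 long TE genes outside them (44.9%). Members rose on every chromosome, from 7 of 83 on chromosome 4 to 34 of 144 on chromosome 2. With flanking repeats and the primer-binding letters 20 of 63 rose, and with repeats but not the letters at the junction 15 of 102. Without flanking repeats 72 of 449 rose, and in these the letters were not searched for.

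The largest rise by level was that of AT3G44215, a group B gene of 4452 bases on chromosome 3 (15919239 to 15923690, minus strand). It had 1 count over the 3 WT libraries, and stood at 254.0, 249.7 and 279.9 CPM in suvh456 and at 115.5, 131.0 and 142.4 CPM in cmt23. It thereby went from no detectable RNA to the highest TPM of all members in suvh456, 93.6 ± 1.49. The log2 change against WT was 12.64 in suvh456 (SE 0.47, adjusted p = 2.7e-15) and 11.63 in cmt23 (SE 0.48, adjusted p = 1.4e-14), and its fitted size depends on the small count added to avoid a log of 0. AT3G28915 of group A, at 1.98, 0.686 and 0.534 CPM in WT, had 163.5, 160.0 and 181.5 CPM in suvh456 and 179.1, 207.8 and 171.8 CPM in cmt23. It rose by 7.32 (SE 0.38) and 7.47 (SE 0.38) on the log2 scale, and its libraries overlapped between the mutants (log2 difference -0.15, SE 0.26). AT1G37040, a chromosome 1 gene outside the 3 groups, had no count in WT and 94.3, 93.6 and 68.3 CPM in suvh456. With WT set to 3 counts over the group, it was at least 966-fold higher in suvh456. In cmt23 it stood at 0.263, 0.189 and 0.194 CPM, and in the hybrids at 18.6, 12.5 and 7.78 CPM in sxc and 6.39, 1.04 and 4.40 CPM in cxs. Its level was thus far higher in one mutant than in the other, and the hybrids lay between them.

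Other members rose with a wide spread between libraries. AT2G12210 had 133.6, 30.1 and 40.9 CPM in suvh456 and 0.351, 1.70 and 36 CPM in cmt23, so 1 library carried most of each group's level. AT5G38365 had 48.2, 10.9 and 20.5 CPM in suvh456 and no count in WT or cmt23. AT2G12490 was the member that fell, from 10.8, 10.6 and 9.76 CPM in WT to 5.88, 5.74 and 6.03 CPM in suvh456 (log2 change -0.82, SE 0.20, adjusted p = 0.025). Its groups did not overlap, yet leaving out any 1 of the 6 libraries took the adjusted p above 0.05, up to 0.12.

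In cmt23, 65 members rose (10.6%) and 2 fell, where 2.32% of all genes were called higher and 1.36% lower. The shorter TE genes in the windows rose in 2.53% and the long ones outside in 35.9%. AT2G16000, of group B, had no count in WT, 25.1, 33.6 and 22.1 CPM in cmt23 and 23.9, 23.4 and 27.5 CPM in suvh456. It was at least 305-fold higher in cmt23 than WT, and its level in the mutants overlapped. AT1G36975 rose evenly, to 13.1, 11.4 and 13.3 CPM in cmt23 and 12.3, 11.2 and 12.3 CPM in suvh456, again from no count in WT. AT1G45020 of group C was higher in cmt23 (69.9, 94.3 and 44.6 CPM) than in suvh456 (50.5, 49.1 and 40.2 CPM) by its mean, although the libraries overlapped. AT2G06950 fell from the WT values above to 21.1, 23.5 and 26.7 CPM in cmt23 (log2 change -0.82, SE 0.23, adjusted p = 0.049), and leaving out any 1 of the 6 libraries took its adjusted p above 0.05, up to 0.20, as did RLE scaling in place of TMM.

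**Figure D2:**
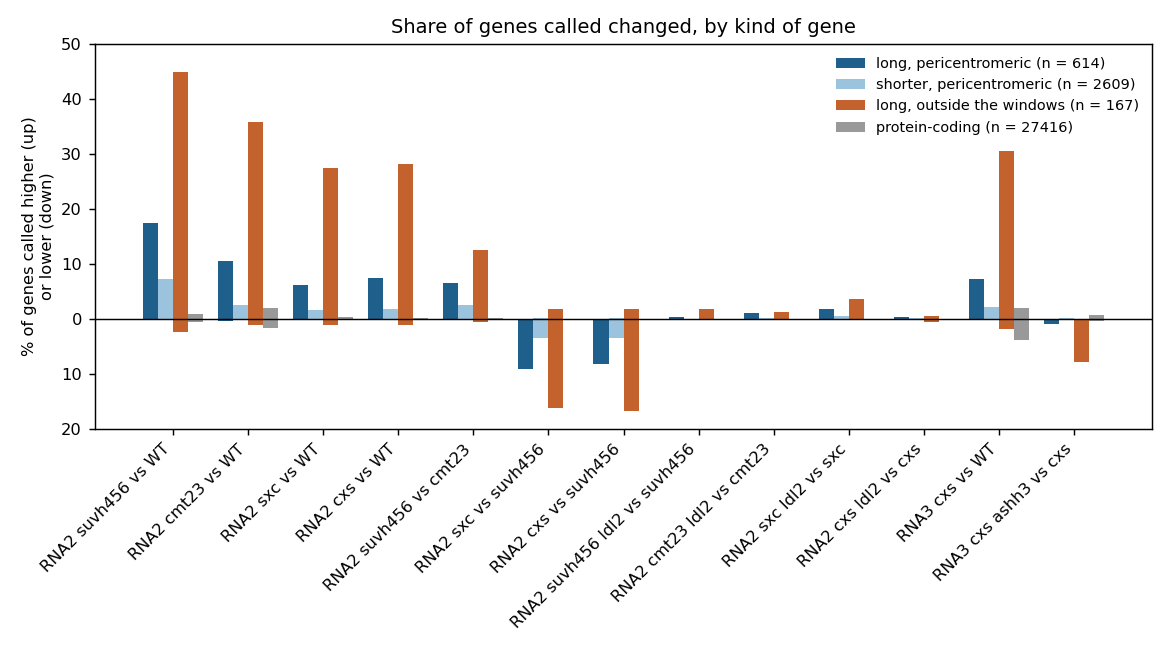
Percent of genes called higher (bars upward) or lower (bars downward) by edgeR's quasi-likelihood test in each comparison, for the 614 long pericentromeric TE genes, the 2609 shorter ones, the 167 long ones outside the windows and protein-coding genes. In suvh456 against WT the shares called higher were 17.4%, 7.17% and 44.9% for the TE genes.

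Set against each other, suvh456 exceeded cmt23 in 40 members and cmt23 exceeded suvh456 in none, where 0.634% and 0.0446% of all genes were called. Group A contributed 9 of the 40. In AT3G42545, for example, the levels were 39.03, 45.3 and 45.03 CPM in suvh456, 4.48, 4.63 and 4.66 CPM in cmt23 and 0 in every WT library. In AT5G28545 they were 21.6, 21.2 and 23.8 CPM in suvh456 and 0.877, 0.661 and 0.970 CPM in cmt23. Groups B and C contributed 3 and 0. In all, 11 of the 13 group A members rose in suvh456 and 9 in cmt23, against 10 and 8 of 13 in group B, and 7 and 6 of 11 in group C, where 1 member, AT2G06950, fell in cmt23. By summed level, group A went from 226.7 ± 7.43 CPM in WT to 875.8 ± 46.2 in suvh456 and 497.7 ± 54.1 in cmt23, most of the WT sum being AT2G11240. Group B went from 37.3 ± 4.04 to 432.9 ± 20.4 and 264.9 ± 19.7 CPM, and group C from 43.4 ± 2.13 to 336.6 ± 21.9 and 198.6 ± 36.5 CPM. In the 4 largest groups, 2 of 96, 0 of 38, 2 of 37 and 10 of 20 members were higher in suvh456 than WT. In the same order, 49, 8, 23 and 17 members had at least 10 counts in total over the RNA2 libraries, and members with fewer could hardly be called. The share called thus differed between groups and did not follow their size, but a low share in a group with few counts does not show that its members stayed silent.

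**Figure D3:**
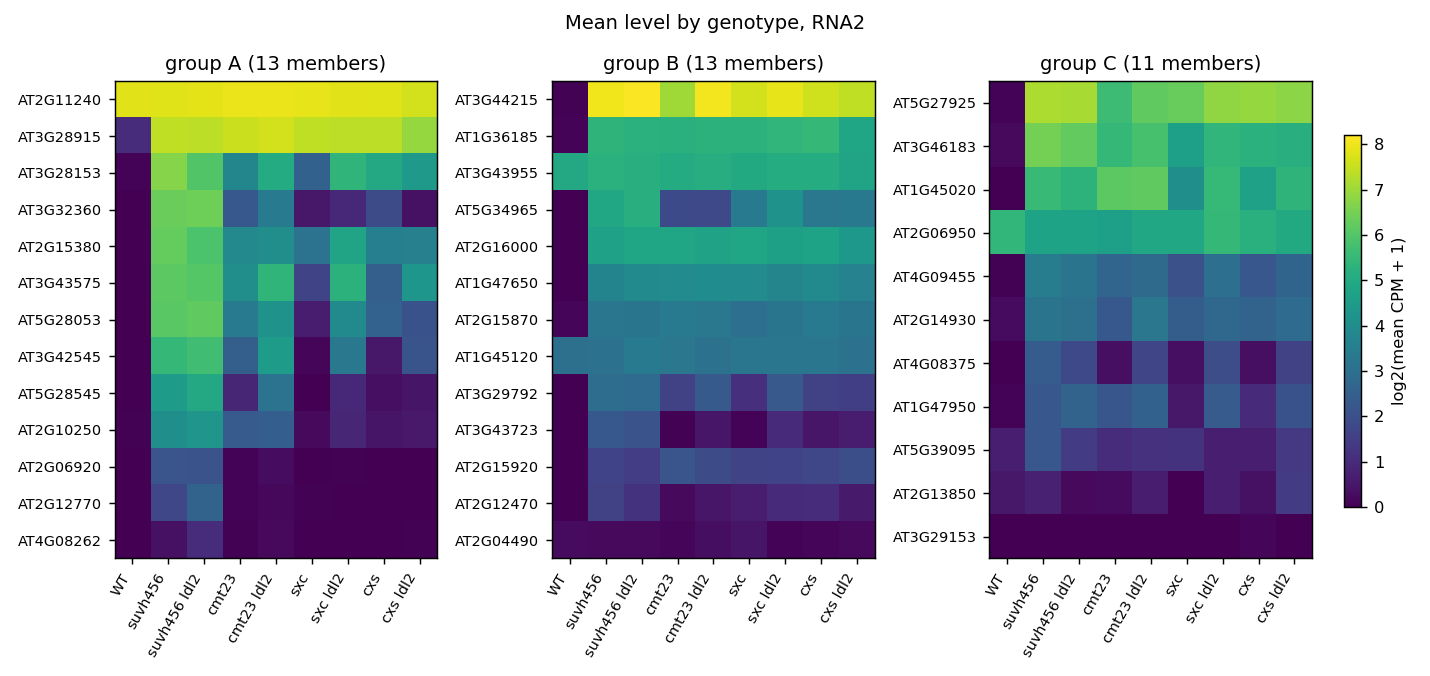
Mean level of each member of sequence groups A, B and C (rows) in the 9 RNA2 genotypes (columns), as log2(mean CPM + 1) by colour. In group A most rows are bright in suvh456 and suvh456 ldl2 and dark in sxc, where 10 of 13 members were lower than in suvh456, while in group B 1 of 13 was.

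The F1 hybrids asked which members are silenced again once both pathways are restored. Against WT, 38 members were still higher in sxc and 46 in cxs, and none was lower, where 0.711% and 0.714% of all genes were called higher and 0.146% and 0.0655% lower. Against suvh456, 56 members were lower in sxc and 50 in cxs, and none was higher, where 0.732% and 0.72% of all genes were called lower and 0.0774% and 0.0684% higher. Fitting the compared genotypes alone left 30 of the 46 calls for cxs against WT. The median log2 difference from suvh456 was -0.66 for the members in sxc and -0.27 in cxs, against 0.00 over all genes in both. In cxs against sxc, edgeR's quasi-likelihood test called 0 members, with 17 higher and 3 lower at an unadjusted p under 0.05, where 0.00298% of all genes were called higher and 0% lower. DESeq2 called 1 member, and edgeR called 1 without sxc replicate 3 or without cxs replicate 2.

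Group A members made up 10 of the 56 calls in sxc and 9 of the 50 in cxs. AT3G42545 stood at 0, 0.245 and 0 CPM in sxc and 0.947, 0.104 and 0.322 CPM in cxs, from a mean of 43.1 CPM in suvh456 (log2 difference -8.67, SE 0.47, adjusted p = 4.8e-10 in sxc, and -6.41, SE 0.38, adjusted p = 1.1e-09 in cxs). AT5G28545 had no count in any sxc library, at least 234-fold below suvh456, and 0.0789, 0.104 and 0.644 CPM in cxs. AT3G32360 fell from 58.1, 75.1 and 104.9 CPM in suvh456 to 0.624, 0.245 and 0.494 CPM in sxc and 6.47, 1.35 and 0.537 CPM in cxs. In sxc all 3 genes lay below both parents without overlap, and in cxs the first 2 did. AT3G43575 fell from 77.6, 62.9 and 69.2 CPM in suvh456, through 26.9, 12.2 and 7.86 CPM in cmt23, to 2.14, 2.53 and 1.85 CPM in sxc and 6.39, 0.829 and 6.55 CPM in cxs. Its log2 difference from suvh456 was -4.98 (SE 0.51, adjusted p = 3.1e-06) in sxc and -3.91 (SE 0.47, adjusted p = 3.9e-05) in cxs. Within the same group, AT3G28915 stayed at 155.3, 152.6 and 197.8 CPM in sxc and 160.1, 165.4 and 170.3 CPM in cxs, with a log2 difference from suvh456 of 0.00 (SE 0.26) and -0.03 (SE 0.26).

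In group B, 8 and 10 of the 13 members were still above WT in sxc and cxs, and 1 of 13, AT3G43723 in both cases, was below suvh456. AT2G16000 stood at 27.6, 25.6 and 30.0 CPM in sxc and 25.7, 25.4 and 27.4 CPM in cxs, the level of either parent, at least 314-fold and 296-fold above WT. AT3G44215 had 167.2, 243.9 and 179.3 CPM in sxc and 222.2, 149.7 and 212.1 CPM in cxs, with log2 differences from suvh456 of -0.41 and -0.42 (SE 0.22 in both) that did not pass the test. AT3G43723 averaged 3.75 CPM in suvh456, 0.0569 CPM in sxc and 0.405 CPM in cxs, so group B was not uniform. AT1G36975, outside these groups, was at 10.5 to 14.1 CPM in all 6 hybrid libraries with functional LDL2, the level of its parents. In group C, 3 of 11 members were lower in sxc than suvh456 and 2 of 11 in cxs. The junction-bearing AT5G27925 of that group showed how far libraries of 1 genotype could differ, with 105.4, 12.7 and 116.6 CPM in sxc and 109.5, 119.7 and 128.6 CPM in cxs. AT5G29646, AT3G31920 and AT4G06588 belonged to a group of 6, in which 5 rose in suvh456 and 4 were lower in each hybrid than in suvh456. AT5G29646 was at 89.2, 53.2 and 58.6 CPM in suvh456 and at 5.97, 2.04 and 4.08 CPM in sxc, and AT3G31920 at 3.86, 3.34 and 3.86 CPM and at 0 in all 6 hybrid libraries.

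**Figure D4:**
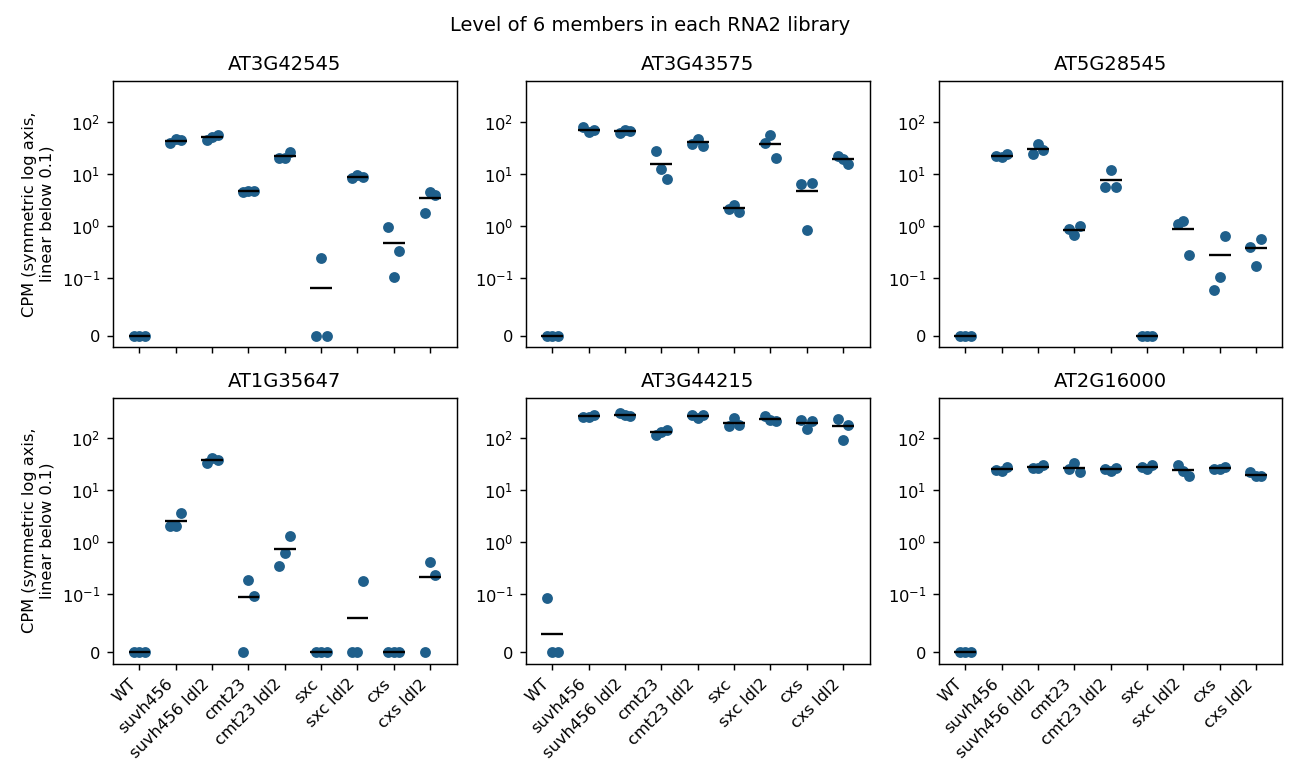
Level of 6 members in each of the 27 RNA2 libraries (points) by genotype, in CPM on a symmetric log axis that is linear below 0.1, with the mean of 3 libraries. AT3G42545, AT3G43575 and AT5G28545 lie far lower in sxc than in suvh456, AT2G16000 is at 18.3 CPM or more in every mutant and hybrid library, and AT1G35647 is highest in suvh456 ldl2, at 33.1 to 42.1 CPM.

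With ldl2 few members were higher, most of them in cmt23 and in sxc. The study's own list of LDL2-regulated TE genes held 48 of the 614 members. It was drawn from DNA methylation in plants of these same crosses, so it is not independent of the contrast. The count of members higher in ldl2 than with LDL2 was 2 in suvh456, 7 in cmt23, 11 in sxc and 2 in cxs, where 0.0208%, 0.0565%, 0.119% and 0.0565% of all genes were called higher. None was called lower, where 0.00298%, 0.00595%, 0.00893% and 0.0446% of all genes were. Of the listed members 0, 4, 7 and 1 were among those called. The listed members summed to 48.7 to 67.2 CPM in sxc and 203 to 251 CPM in sxc ldl2, and to 102 to 119 CPM in cmt23 and 251 to 272 CPM in cmt23 ldl2, without overlap in either pair. They summed to 635.3 to 709.4 CPM in suvh456 and 581.2 to 702.3 CPM in suvh456 ldl2, and to 54.1 to 152 CPM in cxs and 115.1 to 213.4 CPM in cxs ldl2 (the same range without cxs ldl2 replicate 2), with overlap in both pairs. The count in suvh456 stayed at 2 whichever replicate was left out, whereas the other counts moved with single libraries. In cmt23 the count of 7 fell to 3 without cmt23 replicate 1 and to 4 without cmt23 ldl2 replicate 2, and in sxc the count of 11 fell to 7 without sxc replicate 1. In cxs the count of 2 went to 0 without cxs ldl2 replicate 2, the library that stood apart, and to 1 without cxs ldl2 replicate 3. It went to 0 without cxs replicate 3 and to 23 without cxs ldl2 replicate 1. Without cxs ldl2 replicate 2, 0.0149% of all genes were called higher and 0.00595% lower. The fit behind the 23 kept replicate 2, and its share over all genes was not computed. That count is thus not read as particular to the members. The median log2 change in cxs ldl2 against cxs was 0.20 for the members and 0.08 over all genes, and both were 0.00 without cxs ldl2 replicate 2.

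AT3G42545 of group A was called higher with ldl2 in cmt23, sxc and cxs. It went from 4.48, 4.63 and 4.66 to 20.2, 20.4 and 25.8 CPM in cmt23 (log2 change 2.27, SE 0.28, adjusted p = 0.00040). From the values near 0 in sxc it went to 8.22, 9.34 and 8.53 CPM (6.36, SE 0.52, adjusted p = 3.2e-07). In cxs it went to 1.76, 4.53 and 3.82 CPM (2.75, SE 0.42, adjusted p = 0.010), a call that was lost without cxs replicate 3, without cxs ldl2 replicate 2 (2.49, adjusted p = 0.063) and in the fit of the compared genotypes alone. In suvh456, where it was already at 39.03 to 45.3 CPM, it reached 44.6, 51.1 and 55.8 CPM (0.23, SE 0.25, not called). The groups with and without LDL2 did not overlap in the first 3 of these pairs and overlapped in suvh456. The difference of ldl2 effects, taken as the mean of both hybrids minus suvh456, passed the test in 2 members, where 0.0208% of all genes did: AT3G42545 (log2 difference 4.33, SE 0.45, adjusted p = 3.7e-05, and 4.21 without cxs ldl2 replicate 2) and AT3G43575 (3.16, SE 0.53, adjusted p = 0.037). AT3G43575 went to 38.3, 54.2 and 19.8 CPM in sxc ldl2 (log2 change against sxc 4.08, SE 0.50, adjusted p = 0.00027) and to 21.9, 19.5 and 15.3 CPM in cxs ldl2 (2.02, SE 0.46, adjusted p = 0.068), against 59.8, 69.1 and 65.4 CPM in suvh456 ldl2. Its call for the difference did not survive leaving out any 1 library of suvh456, suvh456 ldl2 or sxc, sxc ldl2 replicate 1 or 2, or cxs ldl2 replicate 2, nor the replicate block or the fit of the compared genotypes alone, with adjusted p up to 0.22 over all alternatives.

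Other members called with ldl2 were lower in level. AT5G28545 rose from 0.877, 0.661 and 0.970 CPM in cmt23 to 5.50, 11.9 and 5.49 CPM in cmt23 ldl2 (log2 change 3.17, SE 0.45, adjusted p = 0.0034). AT4G06588 rose from 1 count over the sxc libraries to 2.08, 2.14 and 2.25 CPM in sxc ldl2 (5.66, SE 0.87, adjusted p = 0.0032), and in cxs from 2 counts to 0.783, 1.26 and 2.39 CPM (4.31, SE 0.81, adjusted p = 0.043). In the fit of the compared genotypes alone both calls of AT4G06588 were lost (adjusted p = 0.16 in sxc and 0.53 in cxs), and the cxs call was also lost without cxs replicate 1 or 3 and without cxs ldl2 replicate 2 or 3. AT3G43573 rose in cmt23 (3.82, SE 0.61) and in sxc (4.86, SE 0.83), the former not without cmt23 replicate 1. AT2G05640 rose in cmt23 from 1.42 to 8.41 CPM (2.57, SE 0.41), a call lost without cmt23 replicate 1 or 2 or cmt23 ldl2 replicate 2. AT2G15700, whose junction is shown above, rose from 3 counts over sxc to 6.19 ± 4.29 CPM in sxc ldl2 (5.85, SE 1.17, adjusted p = 0.043), and this call was lost in 9 of its alternatives, among them without any 1 sxc library, without sxc ldl2 replicate 1 or 3 and without cxs ldl2 replicate 2.

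In the suvh456 background the members that rose with ldl2 were the neighbours AT1G35647 (chromosome 1, 13181478 to 13186236) and AT1G35650 (13187285 to 13191749), both on the minus strand. AT1G35647 went from 2.01, 2.02 and 3.58 CPM in suvh456 to 33.1, 42.1 and 37.7 CPM in suvh456 ldl2 (log2 change 3.90, SE 0.45, adjusted p = 0.00099). AT1G35650 went from 0.885, 0.931 and 0.754 CPM to 17.2, 16.4 and 18.7 CPM (4.32, SE 0.46, adjusted p = 0.00018). Both were at 0.189 CPM or less in every cmt23 library and at most 0.107 CPM in the hybrids with LDL2. In RNA3, where both were counted opposite to their annotation, they had equal counts in every library, 10 in total in cxs and 4 in cxs ashh3. Their separate levels in RNA3 are thus uncertain. Of the 100-base windows of AT1G35647, 52.6% occurred once in the genome, against 92.9% for AT1G35650 and a median of 99.4% over the members, so reads that map once covered only part of the former. AT1G37040 went the other way by its mean, from 94.3, 93.6 and 68.3 CPM in suvh456 to 12.1, 40.9 and 58.6 CPM in suvh456 ldl2, without passing the test.

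In RNA3, 44 members were higher and 1 lower in cxs than WT, where 2.37% and 3.25% of all genes were called. AT3G44215 stood at 216.9, 201.7 and 263.0 CPM in cxs with 1 count over the WT libraries, and AT2G16000 at 22.5, 26.4 and 25.4 CPM with none. AT5G35777 fell from 10.3, 11.3 and 18.4 CPM in WT to 3.04, 2.80 and 1.79 CPM (log2 change -2.38, SE 0.27, adjusted p = 3.0e-06). The same gene averaged 4.03 CPM in the WT and 2.95 CPM in the cxs libraries of RNA2 (log2 change -0.47, SE 0.41, not called).

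In cxs ashh3, 6 members were lower than in cxs and none higher, where 0.506% and 0.557% of all genes were called lower and higher. Of the long TE genes outside the windows, 13 of 167 were lower (7.78%). The study's list of 14 ASHH3-regulated TE genes, also drawn from DNA methylation of these crosses and so not independent, held 3 members, AT1G45020, AT3G45520 and AT3G46183. AT3G46183 was the listed member that passed, from 74.3, 59.8 and 61.7 CPM in cxs to 34.8, 41.5 and 53.0 CPM in cxs ashh3 (log2 change -0.60, SE 0.14, adjusted p = 0.040). AT1G45020, with the same junction sequence, had 33.5, 21.5 and 23.9 CPM in cxs and 12.6, 19.8 and 19.8 CPM in cxs ashh3, without passing. AT5G27925, also of group C, went from 211.5, 186.5 and 185.9 CPM to 124.4, 35.2 and 69.1 CPM (-1.36, SE 0.25, adjusted p = 0.0064), with an SD of 44.99 CPM in cxs ashh3 and 14.6 CPM in cxs, and the call was lost when genes with low counts were removed before the test (adjusted p = 0.082). AT5G29646 went from 4.60, 7.42 and 10.3 CPM to no count in any cxs ashh3 library, at least 65.3-fold lower (adjusted p = 4.9e-06). AT5G34965 of group B went from 12.8, 11.8 and 11.5 CPM to 4.90, 0.523 and 6.02 CPM (-1.68, SE 0.40, adjusted p = 0.045), a call lost without cxs replicate 3, without cxs ashh3 replicate 1, by DESeq2 and with genes of low counts removed. AT5G35965 fell from 10.5, 8.77 and 10.7 CPM to 5.75, 3.66 and 4.52 CPM (-1.11, SE 0.23), and AT4G09595 from 38.3, 31.6 and 36.8 CPM to 19.8, 22.1 and 22.6 CPM (-0.72, SE 0.14). In each of these 6 genes cxs ashh3 lay below cxs without overlap, and WT had at most 2.62 CPM in any library. Such lack of overlap was common, since 30 of the 614 members and 2563 of all 33602 genes lay below cxs in this way. In the other direction, 5 members and 2446 genes lay above cxs. The count fell to 2 without cxs replicate 3, to 3 without cxs ashh3 replicate 1 and to 1 when genes with low counts were removed before the test. Group A's AT3G28915 was at 119.0, 168.1 and 141.8 CPM in cxs and 140.4, 162.6 and 122.6 CPM in cxs ashh3, and AT2G16000 at 24.97, 26.5 and 24.8 CPM in cxs ashh3, both overlapping.

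**Figure D5:**
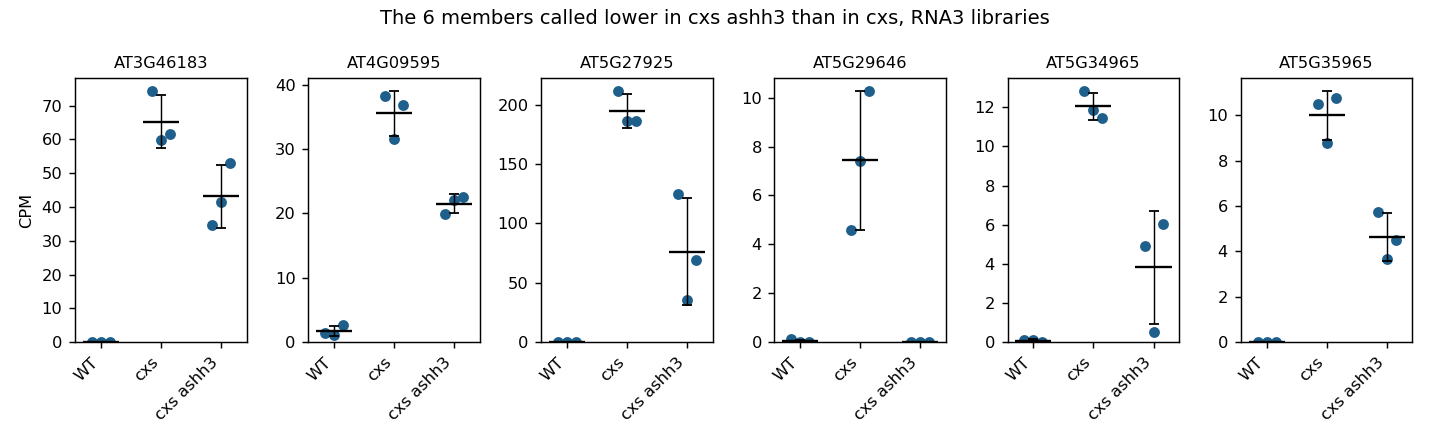
Level in CPM (vertical axes, linear from 0) of the 6 members called lower in cxs ashh3 than in cxs, in the 3 libraries each of WT, cxs and cxs ashh3 of RNA3 (points), with the mean. For each gene the 3 cxs ashh3 libraries lie below the 3 cxs libraries, and AT5G29646 has no count in cxs ashh3.

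The silencing pathway itself was followed through 28 genes fixed as a list, which hold the methyltransferases, demethylases, chromatin remodellers, histone variants and small-RNA factors that act on transposons. In suvh456, 3 of the 28 were lower than WT and none higher, where 0.527% of all genes were called lower and 2.09% higher. The 3 were SUVH5 (log2 change -2.07), SUVH4 (-1.90) and the H3K9 demethylase gene IBM1 (-1.23). SUVH4 and SUVH5 are themselves mutated in suvh456. In cmt23, 3 were lower and none higher, where 1.36% of all genes were called lower and 2.32% higher. These were CMT3 (-1.87), itself mutated in cmt23, IBM1 (-0.77) and the CG methyltransferase gene MET1 (-0.44). CMT3, IBM1 and SUVH4 were lower than WT in sxc (-0.77, -1.03 and -0.74) and in cxs (-0.73, -0.94 and -0.83), and CMT3 and IBM1 in cxs of RNA3 (-0.50 and -0.51). Over all genes, 0.146% were called lower in sxc, 0.0655% in cxs and 3.25% in cxs of RNA3. These hybrids carry 1 functional copy of each mutated SUVH and CMT gene beside a mutant one, and IBM1 is not among the mutated genes. Whether copy number bears on these levels was not tested. With ldl2, SUVH6 was higher in sxc ldl2 than sxc (43.1 against 15.9 CPM, log2 change 1.44, SE 0.25, adjusted p = 0.0075), and no gene of the list was called in suvh456, cmt23 or cxs with ldl2, or in cxs ashh3. Whether that level bears on the members was not tested.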

How the data were processed

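Strand-specific mRNA-seq libraries were made from total RNA of whole seedlings, 3 per genotype, and the authors deposited whole-number read counts per gene in 2 tables (36 count columns), 1 for RNA2 and 1 for RNA3. Per the submitters' processing notes and the methods, reads were aligned with STAR to TAIR10 and reads mapping once were counted. For each gene and each table the authors kept the strand with the larger sum of counts, so 251 members in RNA2 and 169 in RNA3 were counted opposite to their annotation, 204 differed in strand between tables, and every test was made within a table. Another 12 files of the series were not used.

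Counts were tested as deposited with edgeR 4.0.16 (quasi-likelihood test, TMM scaling, no filter on low counts, all genotypes of a table in the fit, no replicate block) in R 4.3.3, with Benjamini-Hochberg adjustment over all 33602 genes and a threshold of 0.05. CPM used TMM-scaled totals, and TPM the annotated length. Depth is given in the report and limits a count of 0 to 3 counts. Alternatives were DESeq2 1.42.0 and RLE scaling, filterByExpr, the compared genotypes alone, a replicate block, leaving out each replicate, and, chosen after seeing the data, leaving cxs ldl2 replicate 2 out of every RNA2 comparison and of the sums, medians and order of genotypes that use it. Samples with the same number were taken as paired where all 3 correlations of their deviations exceeded 0.1, which held for suvh456 ldl2 against suvh456 (0.12, 0.46 and 0.34). The block did not change that count of 2. Tests were checked on simulated data.

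Members and lists were chosen with earlier results of these data known. Named members were the 8 largest rises in each parent against WT, the 3 largest rises or falls elsewhere, among members past the threshold with a mean of at least 1 CPM and no overlap of libraries, the 5 with the highest TPM in WT and in suvh456, and the members nearest the length limit. AT5G35965, AT4G09595, AT3G45520, AT2G05450, AT2G05550, AT2G05560 and AT5G28263 were named for the lists, pairs or counts they belong to, in part after their values were seen. Sequences were compared with blastn 2.17.0 and aligned with mafft 7.526.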

Additional observations from a re-analysis of the deposited data

Results flagged for a closer look

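The effect of ldl2, taken as the mean of both hybrids minus suvh456, differed from 0 in 2 members by edgeR's quasi-likelihood test with Benjamini-Hochberg adjustment. AT3G42545 differed by 4.33 on the log2 scale (adjusted p = 3.7e-05), with all 6 hybrid ldl2 libraries above all 6 hybrid libraries with LDL2. AT3G43575 differed by 3.16 (adjusted p = 0.037), again with all 6 above all 6. Without cxs ldl2 replicate 2, the library with the most genes detected, AT3G42545 still passed (4.21, adjusted p = 6.8e-05) and AT3G43575 did not (3.16, adjusted p = 0.056). Both are members of sequence group A and were called lower in each hybrid than in suvh456. No group held the 4 or more libraries needed to look for single outlying values.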

How the results depend on the processing

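No named call reversed under any alternative run. For named calls, RLE scaling kept 51 of 52, DESeq2 51, the replicate block 50, filterByExpr 49 and the fit of the compared genotypes alone 47. Over all fits that left out 1 replicate, named calls held 335 times and were lost 42 times. The cause of each change below was not tested. Among these alternatives, the share called over all genes was computed only without cxs ldl2 replicate 2, so the other counts describe the members alone.

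With the compared genotypes alone, the count of members called was 30 rather than 46 for cxs against WT, 19 rather than 7 for cmt23 ldl2, 3 rather than 11 for sxc ldl2, 0 rather than 2 for cxs ldl2 and 1 rather than 2 for the difference of ldl2 effects. DESeq2 called 18 for sxc ldl2, 16 for cxs ldl2, 5 for the difference of ldl2 effects and 1 for cxs against sxc. Removing low counts with filterByExpr left 1 of 6 for cxs ashh3. With the replicate block the difference of ldl2 effects was called in 1 member rather than 2. The block moved no other count by over 1.5 times, and its numbers paired the samples by correlation for suvh456 ldl2 against suvh456 alone.

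Leaving out 1 replicate gave 89 to 111 calls for suvh456 against WT, 51 to 70 for cmt23 against WT, 32 to 43 for suvh456 against cmt23, 34 to 41 for sxc against WT, 40 to 47 for cxs against WT, 43 to 62 for sxc and 41 to 58 for cxs against suvh456, 0 to 1 for cxs against sxc, 2 to 2 for suvh456 ldl2, 3 to 8 for cmt23 ldl2, 7 to 12 for sxc ldl2, 0 to 23 for cxs ldl2, 1 to 3 for the difference of ldl2 effects, 41 to 47 for cxs against WT in RNA3 and 2 to 8 for cxs ashh3.

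Without AT2G11240, the member with the largest mean CPM, the summed CPM was 355.4 in WT, 2491 in suvh456, 2472 in suvh456 ldl2, 1233 in cmt23, 1668 in cmt23 ldl2, 1173 in sxc, 1288 in cxs, 1521 in sxc ldl2 and 1382 in cxs ldl2, and in RNA3 259.0 in WT, 1308 in cxs and 1024 in cxs ashh3.

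Depth limits the calls. In RNA2 63 members and in RNA3 204 had no count. In 129 members under 90% of the 100-base windows occurred once in the genome, and reads that map more than once were not counted.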

Other observations

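Of the 112 members with a mean of at least 1 CPM in RNA2, the genotype with the highest mean was suvh456 ldl2 for 37, suvh456 for 26, cxs ldl2 for 23, cmt23 ldl2 for 13, cxs for 4, cmt23 for 3, and WT, sxc and sxc ldl2 for 2 each. Without cxs ldl2 replicate 2, the library that stood apart, these numbers were 38 for suvh456 ldl2, 28 for suvh456, 15 for cxs ldl2, 11 for cmt23 ldl2, 6 for sxc ldl2, 5 for WT, 4 each for cmt23 and cxs, and 1 for sxc.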
